A study of Mus musculus with 25 samples.

Results

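The genes described here carry ion channel symbols, although some encode exchangers of endosomes or lysosomes and Scnm1 a splicing factor. They were taken from the array by their symbols, as every gene named Kcn, Scn, Cacn or Clcn followed by further letters, apart from Kcnj8, that had a probe set annotated with 1 gene symbol. Of 66 such genes, 43 had a signal above the 40th percentile of its array on at least 2 of 25 arrays and were tested, among 6919 genes tested in all. A gene with several such probe sets was represented by the one with the highest mean log2(signal + 13). RNA came from the tibialis anterior, the fast shin muscle that lifts the foot, of C57BL/6J females aged 2 to 3 months. Muscles had been frozen with a steel probe of 6 mm diameter, cooled on dry ice and applied for 10 s, or had made 150 eccentric contractions in vivo, in which the working muscle is forcibly lengthened. Freeze-injured muscle was taken after 6 hours (3 arrays), 1 day (3 arrays), 3 days (3 arrays) or 7 days (2 arrays). Contraction-injured muscle was taken after 6 hours (3 arrays), 1 day (2 arrays), 3 days (3 arrays) or 7 days (3 arrays), and 3 control muscles were uninjured. No transgene or drug appears in the labels, and these do not say whether some arrays came from a common mouse. P-values thus rest on the spread among these samples, which may be partly technical.

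A muscle fibre is an electrically excitable cell. Sodium channels carry its action potential, potassium channels repolarise it, and in muscle an unusually large share of the resting conductance is carried by chloride through ClC-1, the product of Clcn1. The action potential runs into the transverse tubules, where the dihydropyridine receptor senses the voltage and makes the ryanodine receptor of the sarcoplasmic reticulum release calcium. That receptor is an L-type calcium channel with the pore subunit encoded by Cacna1s and auxiliary subunits encoded by Cacna2d1, Cacng1 and a beta subunit gene.

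The 43 genes were 1 sodium channel pore gene (Scn8a), the sodium channel modifier Scnm1, 4 calcium channel pore genes (Cacna1b, Cacna1c, Cacna1e, Cacna1s), 3 calcium channel auxiliary genes (Cacna2d1, Cacnb2, Cacng1) and 6 genes of the CLC family (Clcn1, Clcn2, Clcn3, Clcn4, Clcn5, Clcn7). The other 28 were potassium channel genes. They comprised 11 voltage-gated pore genes (Kcna2, Kcna3, Kcna5, Kcna7, Kcnc1, Kcnd1, Kcnd3, Kcnh2, Kcnq1, Kcns1, Kcns2), 6 inward rectifiers (Kcnj1, Kcnj4, Kcnj6, Kcnj9, Kcnj11, Kcnj12) and 4 two-pore genes (Kcnk1, Kcnk2, Kcnk4, Kcnk7). There were also 3 calcium-activated channels (Kcnma1, Kcnn1, Kcnn4) and 4 auxiliary genes (Kcnab2, Kcnab3, Kcne1, Kcne1l). The 23 genes that did not pass the filter were Cacna1a, Cacna1g, Cacna1h, Cacna2d3, Cacng2, Kcna1, Kcna4, Kcna6, Kcnab1, Kcnd2, Kcnh1, Kcnj2, Kcnj3, Kcnj5, Kcnj15, Kcnk3, Kcnmb1, Kcnu1, Scn1a, Scn3a, Scn7a, Scn9a and Scn10a. Of the 43 genes, 12 were above the percentile on all 25 arrays and 6 on only 2 to 5 arrays. The percentile itself lay between 33.4 and 42.5 signal units.

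Sample 436, labelled freeze at 3 days, stood apart from its group. Over all 12488 probe sets its log2 values correlated at 0.803 and 0.804 with samples 450 and 468 of the same group, which correlated with each other at 0.976, and at 0.947 to 0.952 with the controls. The summed signal of 10 macrophage markers was 224.1 in sample 436, against 289.2 to 431.9 in controls, and reached 22289 in the other freeze arrays at 3 days. The channel gene changes at 3 days after freeze are therefore given with and without it. Because all groups share 1 estimate of the spread in the fit, leaving it out also changes the p-values of the other comparisons. The summed signal of 11 fast fibre markers lay between 109208 and 189946 in the controls. No list of slow fibre markers was used, so this sum does not show their fibre type.

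After injury most of the channel genes that passed the test were lower than in control muscle. Over the 8 comparisons of an injured group with the same 3 controls there were 19 falls and 3 rises with all arrays, and 51 falls and 5 rises without sample 436. Of these falls 10 and 18 came at 3 days after freeze. With all arrays 9% of all genes fell there and 9.9% rose, and 22.2% and 22.7% without sample 436. The shares for the other comparisons are given with their counts below. Calls were made by limma's moderated test at an adjusted p under 0.05 over all probe sets tested. These counts, like every statement on the only or the largest call, hold for the 1 probe set chosen for each gene. In a moderated F test of any difference from control, 8 of 43 channel genes passed, against 28.4% of all genes tested. Without sample 436, 21 passed, against 53.4%.

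Freeze gave 1 fall at 6 hours (2.33% of the channel genes, where 1.75% of all genes fell and 3.63% rose), and no channel gene rose, with none higher at an unadjusted p under 0.05. At 1 day 4 channel genes fell (9.3%, where 5.46% of all genes fell and 9.37% rose) and none rose, also at an unadjusted p. At 3 days 10 fell (23.3%, where 9% of all genes fell and 9.9% rose) and none rose, also at an unadjusted p. At 7 days 1 fell and 1 rose (2.33% each, where 1.78% of all genes fell and 3.82% rose). The median log2 change of the 43 genes was -0.07, -0.46, -0.56 and -0.48 over the 4 times, while that of all genes was -0.06, -0.07, -0.07 and -0.04. Without sample 436, 2 channel genes fell at 6 hours (5.8% of all genes), 11 at 1 day (13%), 18 at 3 days (22.2%), with 8 at 7 days (8.66%). Rises then numbered 0 at 6 hours (6.89% of all genes), 0 at 1 day (15.5%), 1 at 3 days (22.7%), with 2 at 7 days (12.4%). The median at 3 days was then -0.81, and -0.10 over all genes.

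Contraction gave no call among the channel genes at 6 hours, where 0.304% of all genes fell and 1.71% rose, and none at 1 day, where 0.173% fell and 1.73% rose. At an unadjusted p under 0.05, limma gave 1 lower channel gene at 6 hours and 3 at 1 day, and no higher one. At 3 days 3 fell and 1 rose (6.98% and 2.33%, where 2.91% of all genes fell and 5.87% rose). At 7 days 1 rose and none fell, where 0.0867% of all genes fell and 0.549% rose, and 3 were lower at an unadjusted p. The median log2 change of the 43 genes was -0.22, -0.10, -0.36 and -0.21 over the 4 times, while that of all genes was -0.08, -0.04, -0.05 and -0.05. Without sample 436 falls numbered 1 at 6 hours (1.03% of all genes), 0 at 1 day (1.29%), 10 at 3 days (10.7%), with 1 at 7 days (0.911%). Rises numbered 0 at 6 hours (2.69%), 0 at 1 day (3.43%), 1 at 3 days (13.7%), with 1 at 7 days (2.47%).

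**Figure D1:**
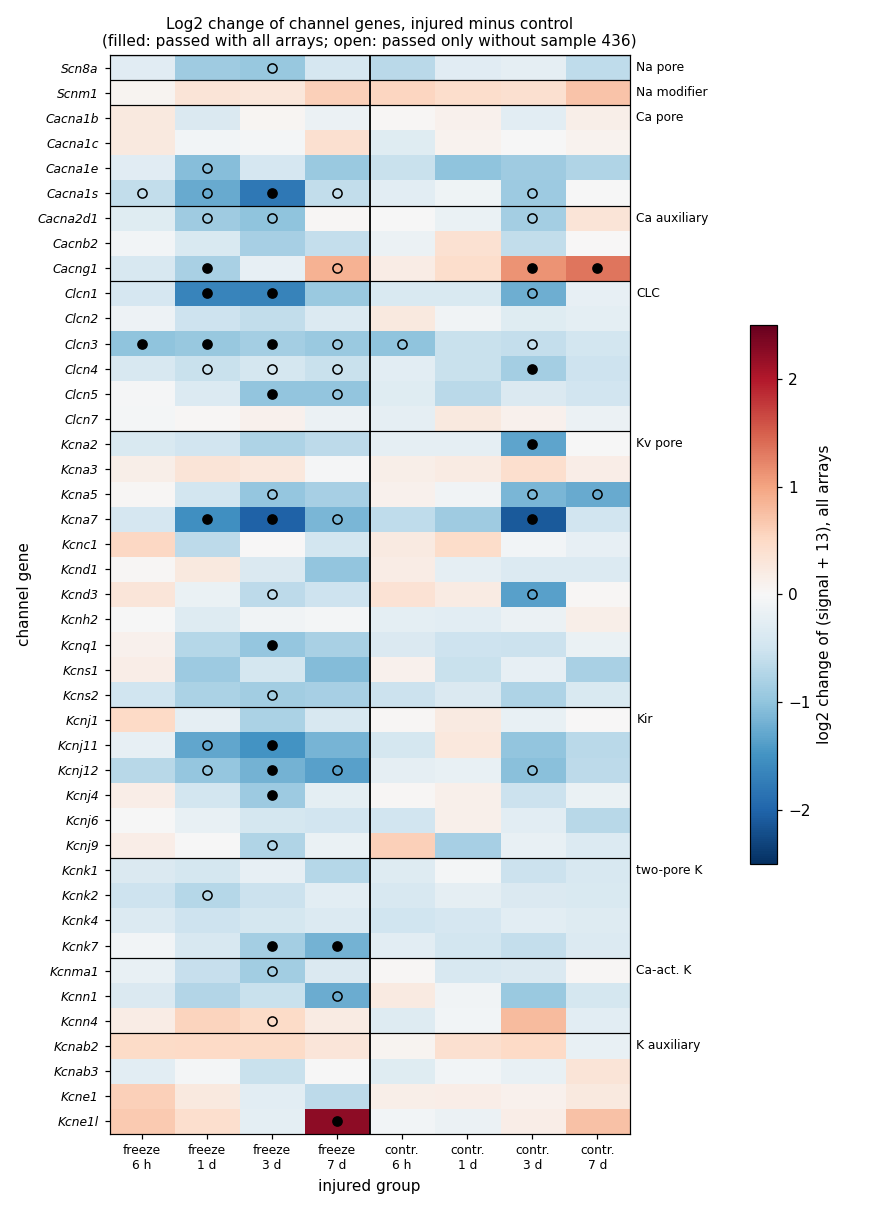
Log2 change of each of the 43 channel genes (rows, by class) in each injured group relative to the 3 controls (columns), with all arrays. Filled circles passed limma's test with all arrays and open circles only without sample 436; most marked cells are blue (lower after injury), and Cacng1, Kcnn4 and Kcne1l carry the marked rises.

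Fibre and immune cell markers moved beside these falls. At 3 days after freeze 4 of 11 fast fibre markers fell and none rose, with a median log2 change of -1.31, where 9% of all genes fell. All 11 fell without sample 436 (median -2.11), where 22.2% of all genes fell. At 1 day after freeze and 3 days after contraction none of the 11 passed with all arrays, at medians of -0.62 and -0.71. Without sample 436, 7 and 8 of them fell, where 13% and 10.7% of all genes fell. The summed signal of the 11 was 70385 to 117769 at 1 day after freeze and 32221 to 190467 at 3 days, where the highest array was sample 436. It was 73221 to 97923 at 3 days after contraction, against 109208 to 189946 in controls. At 6 hours and 7 days after freeze none of the 11 fibre markers passed with all arrays (medians -0.19 and -0.55). Of 10 macrophage markers, 2 rose at 6 hours after freeze, 7 at 1 day, 9 at 3 days, 5 at 7 days, and 7 at 3 days after contraction, with none falling. Their summed signal was 1376 to 3012 at 6 hours, 5338 to 7936 at 1 day, with 5934 to 6266 at 7 days after freeze, and 7803 to 11218 at 3 days after contraction, against 289.2 to 431.9 in controls. In whole muscle, fewer fibres and less RNA per fibre cannot be told apart, and the part of these markers in the channel results was not tested. The ratio of 3' to 5' beta-actin control signal, which follows RNA integrity, was 1.01 to 1.31 at 1 day after freeze, 0.741 to 1.09 at 3 days and 0.923 to 1.21 at 3 days after contraction, against 0.56 to 0.595 in controls. It was 0.657 to 0.955 at 6 hours and 0.776 to 0.808 at 7 days after freeze. After contraction it was 0.572 to 0.669 at 6 hours, 0.617 to 0.641 at 1 day and 0.522 to 0.716 at 7 days. The same ratio for Gapdh lay between 0.797 and 1.13 on all arrays. The part of RNA integrity was not tested.

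Cacna1s, Clcn1 and Kcna7 moved in the same direction and carry much of what follows, and Kcne1l gave the largest rise among the chosen probe sets with all arrays, so their promoters are shown. Each line gives the 250 bases before the start, read 5' to 3' on the gene's own strand, from RefSeq on GRCm38.p6. Capitals mark E-boxes (CANNTG, the motif that myogenic bHLH factors bind) and matches to the MEF2 consensus; both motifs read the same on either strand.
Cacna1s: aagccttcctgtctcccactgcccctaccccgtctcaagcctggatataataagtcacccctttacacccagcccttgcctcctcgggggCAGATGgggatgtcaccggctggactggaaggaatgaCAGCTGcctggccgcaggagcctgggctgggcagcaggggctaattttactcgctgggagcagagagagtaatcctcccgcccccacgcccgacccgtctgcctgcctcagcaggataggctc
Clcn1: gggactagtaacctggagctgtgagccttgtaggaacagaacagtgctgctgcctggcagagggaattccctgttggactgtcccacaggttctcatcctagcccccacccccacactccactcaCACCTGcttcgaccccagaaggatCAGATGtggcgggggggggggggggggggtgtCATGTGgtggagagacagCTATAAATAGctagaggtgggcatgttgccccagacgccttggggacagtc
Kcna7: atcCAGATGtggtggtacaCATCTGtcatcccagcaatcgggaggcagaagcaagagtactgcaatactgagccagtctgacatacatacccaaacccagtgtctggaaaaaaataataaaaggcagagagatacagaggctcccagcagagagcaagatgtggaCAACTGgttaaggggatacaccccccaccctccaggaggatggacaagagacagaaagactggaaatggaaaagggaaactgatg
Kcne1l: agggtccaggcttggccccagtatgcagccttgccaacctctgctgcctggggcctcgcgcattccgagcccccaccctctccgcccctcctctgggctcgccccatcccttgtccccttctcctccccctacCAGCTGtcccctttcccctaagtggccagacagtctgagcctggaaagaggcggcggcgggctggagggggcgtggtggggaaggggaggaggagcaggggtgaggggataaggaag

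The windows lie at chr1:136052561-136052810 (plus strand), chr6:42286435-42286684 (plus strand), chr7:45405710-45405959 (plus strand) and chrX:142306199-142306448 (minus strand). Cacna1s has 2 E-boxes, 1 of them CAGCTG, and no MEF2 match. Clcn1 has 3 E-boxes and 1 MEF2 match, CTATAAATAG, that starts 51 bases before the start. Kcna7 has 3 E-boxes and no MEF2 match, and Kcne1l has 1 E-box, CAGCTG. Of 32851 promoter windows of the same length, 66.2% held CANNTG, 13% held CAGCTG and 2.92% matched the MEF2 consensus. The table held 50 windows for 35 of the 43 genes, of which 36 held CANNTG, 15 held CAGCTG and 3 matched MEF2. CAGCTG is one form of CANNTG. A match is a description of these letters and not a site of binding. The table held no entry for Cacng1 or Kcnj11.

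The skeletal muscle calcium channel was represented by 3 of its subunit genes, which moved in different ways. Cacna1s, its pore subunit and voltage sensor, had signals of 2183 in sample 436 and 320.1 and 376 in samples 450 and 468 at 3 days after freeze, against 2047, 2533 and 2174 in controls. Samples 450 and 468 lay far below every control and sample 436 lay among the controls. Cacna1s fell at 3 days (log2 change of -1.78 ± 0.43, SE, 3.43-fold lower, adjusted p = 0.0147), and changed by -2.65 ± 0.21 without sample 436 (adjusted p = 1.51e-09). At the other times after freeze it had 1268, 1759.9 and 1419 at 6 hours, 847, 939 and 995 at 1 day and 1573 and 1360.4 at 7 days. All these arrays lay below the lowest control, yet with all arrays none of the 3 times passed (adjusted p = 0.517, 0.0515 and 0.446). Without sample 436 all passed (adjusted p = 0.0392, 2.51e-05 and 0.0446).

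After contraction Cacna1s had 2106, 1826 and 1714 at 6 hours, 1964 and 2216 at 1 day, 941, 1395 and 1295 at 3 days, and finally 2655, 1612 and 2614 at 7 days. At 3 days every array lay below the controls (-0.90 ± 0.43), with an adjusted p of 0.183 with all arrays and 0.00115 without sample 436. At the other 3 times the arrays overlapped the controls and did not pass either way.

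Cacng1 encodes the gamma subunit of the same channel, and its signals moved otherwise. They were 1751, 1593 and 2561 at 3 days, with 2084, 2279 and 2346 at 7 days after contraction, against 808, 1212 and 692 in controls. Every one of those 6 arrays exceeded the highest control. Cacng1 rose by 1.12 ± 0.26 at 3 days (2.17-fold, adjusted p = 0.0122) and by 1.33 ± 0.26 at 7 days (2.52-fold, adjusted p = 0.0141). Among the chosen probe sets it was the only one to rise at 3 and at 7 days after contraction, with all arrays and without sample 436, while a second probe set of Clcn5 also rose at 3 days with all arrays. At 6 hours and 1 day after contraction it had 1003, 944 and 1063 and 1317 and 1100.1, and neither passed.

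After freeze Cacng1 had 656, 821 and 533 at 6 hours and 504, 419.6 and 581 at 1 day. It had 1178 in sample 436 and 612 and 602 in samples 450 and 468 at 3 days, and 1811 and 1456 at 7 days. At 1 day all 3 arrays lay below the lowest control and at 7 days both lay above the highest. The fall at 1 day passed (-0.81 ± 0.26, adjusted p = 0.04). The value at 7 days was 0.88 ± 0.29 (adjusted p = 0.074, and 0.00834 without sample 436), and at 3 days -0.21 ± 0.26 (adjusted p = 0.583, and 0.0685 without).

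The single arrays on which these calls turned were as follows, each with the adjusted p without it in brackets. The fall of Cacng1 at 1 day after freeze was lost without any one of sample 422 (0.0804), sample 460 (0.139), sample 464 (0.0595), control 1 (0.0681) and control 2 (0.173). The rise at 3 days after contraction was lost without sample 467 (0.0711) and control 3 (0.0636), and the rise at 7 days without any one of sample 439 (0.1), sample 453 (0.0892), control 1 (0.0747) and control 3 (0.113). All 10 channel gene falls at 3 days after freeze were lost without sample 450 or without sample 468, at adjusted p between 0.116 and 0.256. Either leaves sample 436 and 1 other array in the group.

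Cacng1 also separated the injuries. Freeze minus contraction was -1.25 ± 0.29 at 1 day (adjusted p = 0.0282), and -1.33 ± 0.26 at 3 days (adjusted p = 0.0193, and -1.64 without sample 436). No freeze array reached the lowest contraction array at either time. It was 1 of 43 channel genes (2.33%) lower after freeze at 1 day, where 0.795% of all genes were lower and 0.766% higher, and 1 of 43 at 3 days, where 0.39% were lower and 0.0578% higher. No channel gene was higher after freeze at either time, also at an unadjusted p under 0.05. No channel gene differed at 6 hours (0.0723% of all genes lower and 0.275% higher) or at 7 days (0% lower and 0.405% higher), with 1 lower and 1 higher at an unadjusted p at each. Without sample 436, Cacna1s, Cacng1 and Clcn1 were lower after freeze at 1 day, 3 genes where 3.97% of all genes were lower and 6.84% higher. At 3 days 6 were then lower, Cacna1s, Cacng1, Clcn1, Clcn3, Clcn5 and Kcnj9, where 8.95% were lower and 9.67% higher. At 7 days Kcnk7 was then lower and Kcne1l higher, where 1.92% were lower and 6.04% higher, and at 6 hours there was again none, where 0.607% were lower and 2.01% higher. The call at 1 day was lost without any one of sample 421 (0.26), sample 463 (0.195), sample 422 (0.0811) and sample 460 (0.11). The call at 3 days was lost without sample 467 (0.177), sample 450 (0.128) and sample 468 (0.103).

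**Figure D2:**
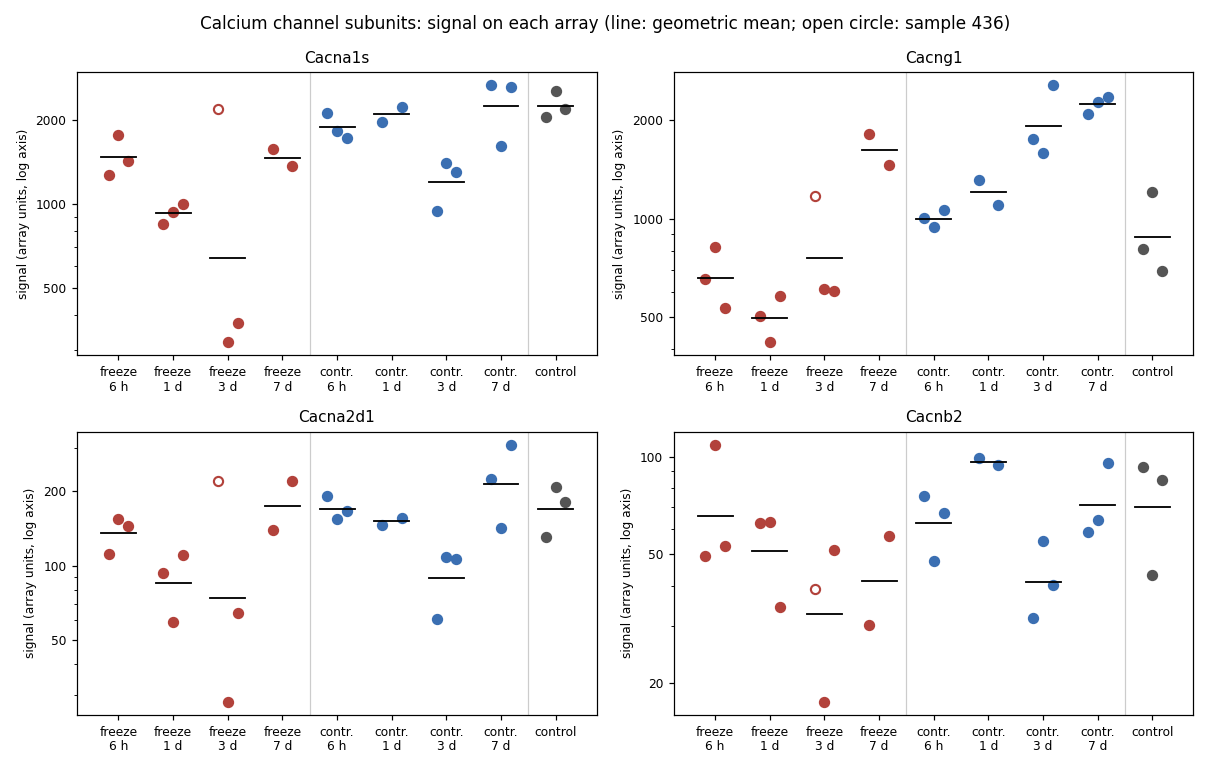
Signal of 4 calcium channel subunit genes on each array (points, log axis) in freeze groups, contraction groups and controls, with the geometric mean of each group as a line and sample 436 as an open circle. Cacna1s lies below the controls at every time after freeze except in sample 436, while Cacng1 lies above them at 3 and 7 days after contraction and at 7 days after freeze.

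Cacna2d1, the alpha2-delta subunit that helps bring the channel to the membrane, had 93.5, 59.2 and 110.2 at 1 day after freeze and 60.8, 109 and 106 at 3 days after contraction, against 130.0, 208 and 181 in controls. Both groups lay wholly below the controls. It had 220.4 in sample 436 and 28.1 and 64.6 in samples 450 and 468 at 3 days after freeze. It passed at none of these with all arrays (adjusted p = 0.148, 0.2 and 0.0886) and at all of them without sample 436 (0.0235, 0.0377 and 0.000165). Cacna1e, a pore gene known from neurons and endocrine cells, was dim, above the percentile on 4 arrays, 2 of them controls. It passed only at 1 day after freeze without sample 436 (-1.07 ± 0.36, adjusted p = 0.0295). Its signals there were 12.3, 9.7 and 6.2, against 19.2, 48.5 and 38.5 in controls, with no overlap. With all arrays the chosen Cacna1e probe set had an adjusted p of 0.054 there. A second one changed by -0.27 (adjusted p = 0.646). Cacnb2, Cacna1b and Cacna1c, the last the cardiac and smooth muscle L-type pore gene, passed in no comparison with or without sample 436.

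Among the chosen probe sets of the chloride genes Clcn1 had the largest changes. It had 149.6, 234 and 294 at 1 day after freeze and 629.7 in sample 436 and 112 and 136 in samples 450 and 468 at 3 days, against 638, 679 and 832 in controls. No array of either group reached the lowest control, although sample 436 came close. The falls were -1.65 ± 0.48 (3.14-fold, adjusted p = 0.0254) and -1.66 ± 0.48 (3.16-fold, adjusted p = 0.025), and the second was -2.41 ± 0.39 without sample 436 (adjusted p = 2.34e-05). At 6 hours and 7 days after freeze it had 513, 636 and 458, and 403 and 338, which did not pass.

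After contraction Clcn1 had 558, 677 and 419 at 6 hours, 448 and 656 at 1 day, 118, 494 and 443 at 3 days, with 624, 756 and 492 at 7 days. The group at 3 days lay below the controls but was wide, with sample 435 lowest. Its change was -1.22 ± 0.48 (adjusted p = 0.108, and 0.0127 without sample 436). The fall at 1 day after freeze was lost without any one of sample 422 (0.0978), sample 460 (0.059), control 1 (0.0533), control 2 (0.0552) and control 3 (0.0788), and that at 3 days also without any one of control 1 (0.0554), control 2 (0.051) and control 3 (0.0722).

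Clcn3, Clcn4 and Clcn5 encode chloride-proton exchangers of endosomes. Clcn3 had 236, 344 and 230.4 at 6 hours, 296, 285 and 247 at 1 day, 543 in sample 436 and 240.3 and 196 in samples 450 and 468 at 3 days, with 284 and 272 at 7 days after freeze, against 524, 472 and 645 in controls. Every freeze array other than sample 436 lay below every control. Clcn3 was the only channel gene to fall at 6 hours after freeze with all arrays (-0.997 ± 0.26, adjusted p = 0.0275), and it fell too at 1 day (-0.95 ± 0.26, adjusted p = 0.0212) and 3 days (-0.85 ± 0.26, adjusted p = 0.0335, and -1.27 without sample 436). At 7 days after freeze and 3 days after contraction it passed only without sample 436 (-0.93, adjusted p = 0.00228, and -0.60, adjusted p = 0.0204). After contraction it had 299.5, 243 and 249 at 6 hours, a difference of -1.01 ± 0.26 at the edge of the threshold (adjusted p = 0.0504, and 0.0012 without sample 436). With all arrays the other 3 probe sets of Clcn3 were called in no comparison, so the falls rest on 1 of 4 probe sets. The call at 6 hours was lost without any one of sample 418 (0.12), sample 446 (0.132), control 1 (0.0655) and control 3 (0.133). The call at 1 day was lost without any one of sample 460 (0.051), sample 464 (0.0825) and control 3 (0.0801), and at 3 days also without control 1 (0.0699) and control 3 (0.106).

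Clcn4 had 205, 277 and 226 at 3 days after contraction, against 445, 392 and 456 in controls, with no overlap. It fell there by -0.84 ± 0.20 (1.79-fold, adjusted p = 0.0158), and the call was lost without any one of sample 435 (0.0836), sample 467 (0.0585), control 1 (0.0508) and control 3 (0.0562). After freeze it passed only without sample 436, at 1 day (-0.56, adjusted p = 0.0143), 3 days (-0.68, 0.00424) and 7 days (-0.56, 0.0365). With all arrays a second Clcn4 probe set did not pass at 3 days after contraction and did pass, lower, at 3 days after freeze (-0.75, adjusted p = 0.0301). Clcn2 and the lysosomal exchanger gene Clcn7 passed in no comparison.

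The 2 probe sets of Clcn5 moved in opposite directions. The one chosen by the rule had 42.8 in sample 436 and 23.9 and 13.7 in samples 450 and 468 at 3 days after freeze, against 73.4, 54.5 and 59.1 in controls, and fell (log2 change of -0.98 ± 0.28, adjusted p = 0.0238, and -1.26 without sample 436). At 7 days after freeze it passed only without sample 436 (-0.98, adjusted p = 0.0183). The other had 12.8 in sample 436 and 309 and 326 in samples 450 and 468 at that time, against 4.6, 14.1 and 6.1 in controls, and rose by 2.76 (adjusted p = 0.0117). It had 89.6, 98.1 and 75.5 at 1 day and 123 and 131 at 7 days after freeze, and 204, 75 and 80.1 at 3 days after contraction. All of these arrays lay above every control, and all 3 groups passed, at log2 changes of 2.26, 2.74 and 2.54 (adjusted p = 0.0166, 0.0236 and 0.0155). The chosen probe set lay below the array's 40th percentile in samples 450 and 468 (38.7 and 36.9 signal units). The rising probe set was near the floor in controls, so its changes are on the log2(signal + 13) scale and understate the ratio of signals. It entered the test through injured muscle alone, so a higher value after injury was favoured and its changes are a description. Of 108 pairs of a second probe set and a comparison over the 7 channel genes with several tested probe sets, this was the only one called in opposite directions, and no pair was called in the same direction. In 10 pairs only the chosen probe set passed, and in 4 only the other, 3 of them of Clcn5. The direction of Clcn5 is therefore not settled by these arrays. The fall was also lost without control 1 (0.0769) and control 3 (0.0534).

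**Figure D3:**
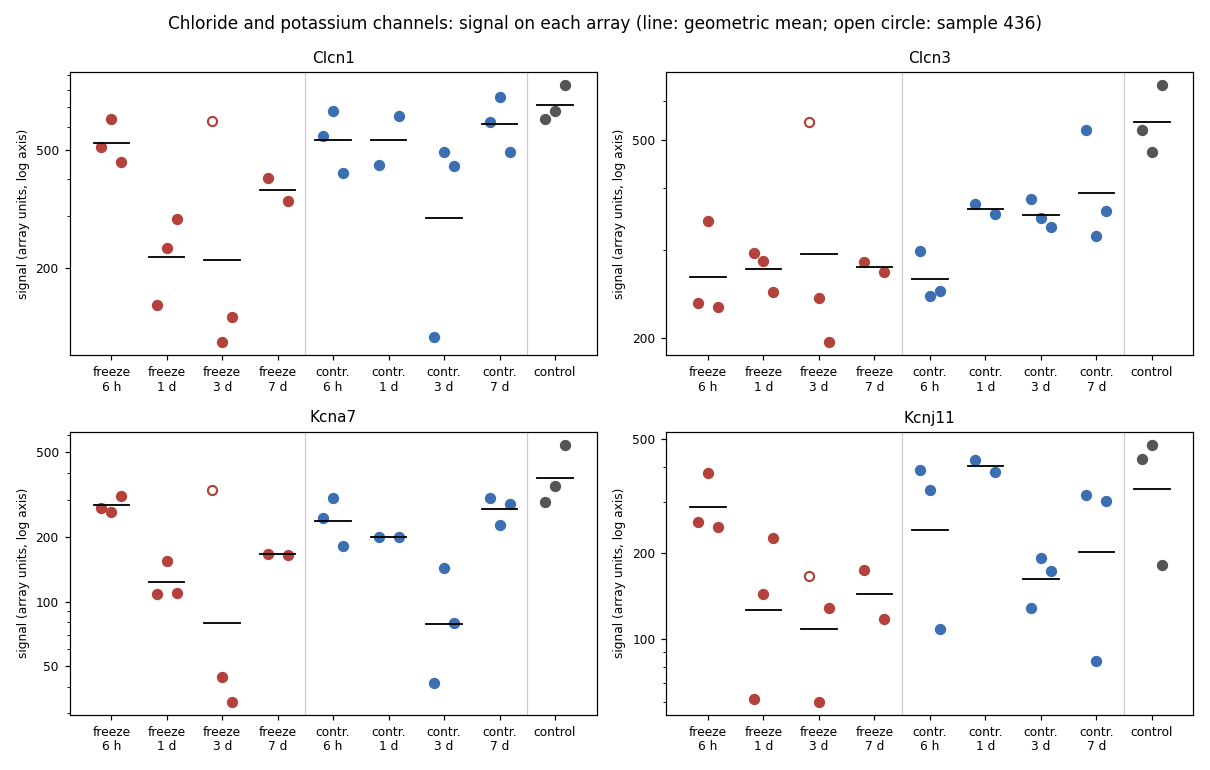
Signal of Clcn1, Clcn3, Kcna7 and Kcnj11 on each array (points, log axis) in freeze groups, contraction groups and controls, with the geometric mean of each group as a line and sample 436 as an open circle. Clcn1 and Kcna7 are lowest in samples 450 and 468 at 3 days after freeze and in sample 435 at 3 days after contraction.

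Kcna7 had the largest falls of the set. It encodes Kv1.7, a voltage-gated potassium channel of skeletal muscle and heart. Its signals were 108, 156 and 110.2 at 1 day and 332 in sample 436 and 44.4 and 33.9 in samples 450 and 468 at 3 days after freeze and 41.5, 144 and 79.7 at 3 days after contraction, against 292, 348 and 544 in controls. Apart from sample 436, which lay among the controls, none of these arrays reached the lowest control. Kcna7 fell at 1 day after freeze (log2 change of -1.53 ± 0.49, 2.9-fold, adjusted p = 0.0393). It fell at 3 days after freeze (log2 change of -2.02 ± 0.49, 4.04-fold, adjusted p = 0.0147), or -2.93 ± 0.31 without sample 436 (adjusted p = 9.63e-08). At 3 days after contraction it fell (log2 change of -2.09 ± 0.49, 4.26-fold, adjusted p = 0.0135).

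At 7 days Kcna7 had 168 and 166 after freeze, still below every control (-1.13 ± 0.54, adjusted p = 0.208, and 0.0133 without sample 436). After contraction it had 305, 228 and 285 at 7 days, which overlapped the controls. At 6 hours it had 276, 262 and 313 after freeze and 246, 305 and 183 after contraction, and at 1 day after contraction 201 and 201, none of which passed. The freeze call at 1 day was lost without any one of sample 422 (0.0972), sample 460 (0.0613), sample 464 (0.112), control 1 (0.0544), control 2 (0.0708) and control 3 (0.135) and the call at 3 days also without control 3 (0.0513). The contraction call was lost without sample 435 (0.0901) and control 3 (0.0658).

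Of the other 10 voltage-gated potassium channel genes 2 fell in some group with all arrays. Kcnq1, a channel of heart and epithelia, fell at 3 days after freeze (-0.96 ± 0.32, adjusted p = 0.0409, and -1.31 without sample 436), with 146 in sample 436 and 59.6 and 67.0 in samples 450 and 468, against 231, 158 and 150.3 in controls and no overlap. The call was also lost without any one of control 1 (0.147), control 2 (0.0641) and control 3 (0.0622). Kcna2, a channel best known from axons, fell at 3 days after contraction (-1.31 ± 0.40, adjusted p = 0.0452). Its signals there were 9.2, 51.7 and 6.0, against 78.6, 35.0 and 81.9 in controls, so the groups overlapped, and leaving out any of 16 of the 25 arrays (adjusted p between 0.0501 and 0.186) lost the call.

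Kcna5, which encodes Kv1.5, had 19.1, 42.1 and 41.4 at 3 days, with 33.2, 52.9 and 12.1 at 7 days after contraction, against 115, 46.9 and 124 in controls. Only the arrays at 3 days lay wholly below the controls. It passed the F test over all injured groups with all arrays, and without sample 436 it passed at 3 days (adjusted p = 0.016) and 7 days (0.0418) after contraction and at 3 days after freeze (0.00886). Kcnd3, an A-type channel gene, had 17.2, 25.4 and 75.8 at 3 days after contraction, against 137, 119.6 and 74.8 in controls, with sample 467 inside the control range. It passed there (0.00911) and at 3 days after freeze (0.0121) only without sample 436. Kcns2, a modulatory subunit gene that forms no channel alone, passed only at 3 days after freeze without sample 436 (-1.01 ± 0.34, adjusted p = 0.0209). Kcna3, the Kv1.3 gene of lymphocytes and macrophages, was above the percentile on 5 arrays and passed nowhere, at 37.1, 34.6 and 42.1 at 3 days after contraction, against 42.8, 11.9 and 26.2 in controls. The other 4, Kcnc1, Kcnd1, Kcnh2 and Kcns1, passed in no comparison with or without sample 436.

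Inward rectifiers let potassium in more easily than out and hold the resting potential. Of 6 tested, 3 fell at 3 days after freeze with all arrays (9% of all genes) and 4 without sample 436 (22.2% of all genes). Kcnj11, the pore of the ATP-sensitive channel of muscle, had 166 in sample 436 and 60.2 and 128 in samples 450 and 468 at 3 days after freeze, against 425, 478 and 182 in controls, with no overlap. It fell (log2 change of -1.50 ± 0.51, 2.83-fold, adjusted p = 0.0444, and -1.77 without sample 436), and leaving out any of 11 of the 25 arrays (adjusted p between 0.0506 and 0.135) also lost the call. At 1 day after freeze it had 61.6, 144 and 225, a change of -1.31 ± 0.51 (adjusted p = 0.0858, and 0.0472 without sample 436).

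Kcnj12, the Kir2.2 gene, had 77.1 in sample 436 and 25.5 and 16.4 in samples 450 and 468 at 3 days, with 24.9 and 31.4 at 7 days after freeze, against 112, 116 and 59.9 in controls. It fell at 3 days (log2 change of -1.18 ± 0.39, adjusted p = 0.0417), and changed by -1.65 ± 0.37 without sample 436, which overlapped the controls. At 7 days both arrays lay below the controls, at -1.36 ± 0.44 (adjusted p = 0.068, and 0.0117 without sample 436). Kcnj4, the Kir2.3 gene, had 35.3 in sample 436 and 49.4 and 42.5 in samples 450 and 468 at 3 days after freeze, against 95.2, 87.8 and 89.9 in controls, so that here sample 436 was as low as the rest. It fell (log2 change of -0.92 ± 0.25, adjusted p = 0.0223), and changed by -0.82 ± 0.28 without that sample (adjusted p = 0.0216). Kcnj9, a G protein-gated channel gene, passed only at 3 days after freeze without sample 436 (-1.25 ± 0.36, adjusted p = 0.00652). At 1 day after freeze and 3 days after contraction Kcnj12 passed only without sample 436 (-0.96, adjusted p = 0.0346, and -1.04, adjusted p = 0.0258). The Kcnj12 call was also lost without control 1 (0.121) and control 2 (0.117), and the Kcnj4 call without control 1 (0.0602) and control 3 (0.0534).

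Kcnk7, a member of the two-pore family of background potassium channels, had 32.3 and 46.5 at 7 days after freeze and 70.6 in sample 436 and 65.0 and 29.9 in samples 450 and 468 at 3 days, against 125, 110.1 and 83.0 in controls. It was below every control at both times. It was the only channel gene to fall at 7 days after freeze with all arrays (-1.18 ± 0.27, 2.27-fold, adjusted p = 0.0158), and it fell at 3 days (log2 change of -0.85 ± 0.24, adjusted p = 0.0234, and -1.02 without sample 436). At 7 days after contraction it had 84.5, 81.9 and 72.5, and freeze minus contraction was -0.83 ± 0.27 (adjusted p = 0.222, and 0.0489 without sample 436). The call at 7 days was lost without any one of sample 440 (0.23), sample 454 (0.071) and control 1 (0.0571), and that at 3 days also without control 1 (0.0801) and control 2 (0.057). Kcnk2, the stretch-sensitive TREK-1 gene, was above the percentile on 5 arrays, 3 of them controls, and passed only at 1 day after freeze without sample 436 (-0.72 ± 0.24, adjusted p = 0.0277). Kcnk1 and Kcnk4 passed in no comparison.

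Kcne1l encodes a single-pass auxiliary subunit of the KCNE family that modifies voltage-gated potassium channels. It had 94.8 and 111 at 7 days after freeze, against 14.9, 8.4 and 11.4 in controls. Both arrays stood above all other 23, of which the highest was 52.2 at 6 hours after freeze. The rise was 2.24 ± 0.38 (4.74-fold on the log2(signal + 13) scale, adjusted p = 0.00203). At 3 days after freeze it had 7.7 in sample 436 and 8.4 and 6.9 in samples 450 and 468, like the controls, and at 7 days after contraction 37.6, 11.4 and 40.9. Freeze minus contraction at 7 days was 1.51 ± 0.38 (adjusted p = 0.085, and 0.0184 without sample 436). The gene passed the filter on 5 arrays, all of injured muscle and 2 of them those at 7 days after freeze, and was dim in controls. Because it entered the test through injured muscle alone, a higher value after injury was favoured and its change is a description. It is 1 of the 3 rises counted against control with all arrays. The rise was lost only without sample 454 (0.0534), which leaves 1 array in the group. Denervation and immature fibre markers were also high there, with a summed signal over 8 genes of 4486 to 4766, against 340.1 to 412.2 in controls. Their sum was 428.1 in sample 436 and reached 4316 at 3 days after freeze. It was 1297 to 4301 at 3 days after contraction, where Kcne1l had 14.2, 23.9 and 7.3. The 8 genes did not move alike. At 3 days after freeze Myog had 2240 and 1797 in samples 450 and 468, against 673 and 683 at 7 days. Myh8 had 45.3 and 80.6 in those samples, against 1520.5 and 1163 at 7 days after freeze. The part of these fibres in the rise was not tested. Kcnab2, Kcnab3 and Kcne1 passed in no comparison.

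**Figure D4:**
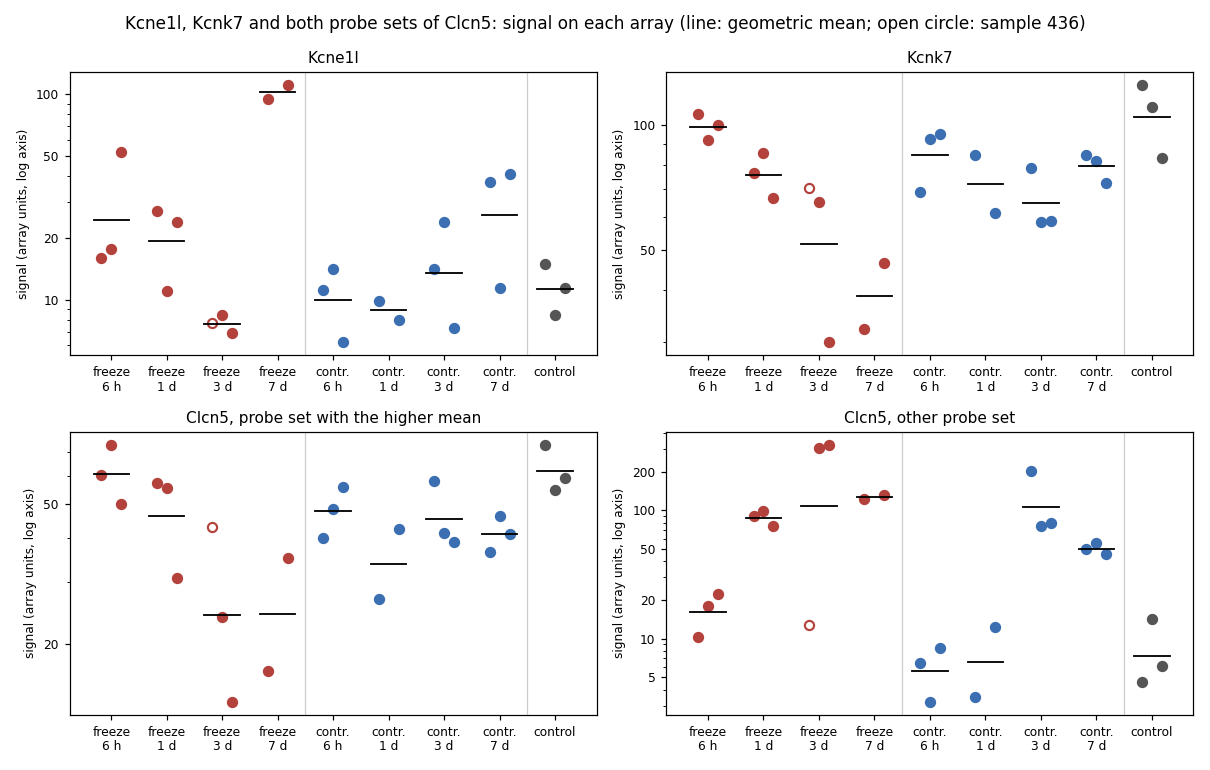
Signal of Kcne1l, Kcnk7 and both tested probe sets of Clcn5 on each array (points, log axis) in freeze groups, contraction groups and controls, with the geometric mean of each group as a line and sample 436 as an open circle. Kcne1l is high at 7 days after freeze, Kcnk7 is low there, and the other Clcn5 probe set is high in samples 450 and 468 while the chosen one is low.

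Calcium-activated potassium channels gave no call with all arrays. At an unadjusted p under 0.05, limma gave Kcnn1 lower at 3 days after contraction and 7 days after freeze, Kcnma1 lower at 3 days after freeze, and Kcnn4 higher at 3 days after contraction. Kcnn4, the intermediate-conductance channel of macrophages, lymphocytes and red cells, had 46.1 in sample 436 and 146 and 138 in samples 450 and 468 at 3 days after freeze and 135, 142 and 105 at 3 days after contraction, against 93.2, 52.2 and 63.2 in controls. The contraction arrays and samples 450 and 468 lay above every control, and sample 436 lay below them. It passed only at 3 days after freeze without sample 436 (0.94 ± 0.33, adjusted p = 0.025), the one rise among the chosen probe sets at that time. At 3 days after contraction the change was 0.79 ± 0.36 (adjusted p = 0.165, and 0.0577 without). Kcnma1, the large-conductance channel gene, was lower at 3 days after freeze only without sample 436 (-1.18 ± 0.31, adjusted p = 0.00399). Kcnn1, a small-conductance channel gene, was lower at 7 days after freeze only without it (-1.25 ± 0.40, adjusted p = 0.0332). Kcnn1 had 96.1 and 33.0 there, against 87.8, 203.2 and 205.3 in controls, so the groups overlapped. Scn8a, a sodium channel gene of neurons and the only pore gene of its class tested, was above the percentile on 2 arrays, both controls. It had 15.0 in sample 436 and 21.8 and 3.6 in samples 450 and 468 at 3 days after freeze, against 44.7, 24.6 and 40.8 in controls, with no overlap. Because it entered the test through the controls alone, a lower value after injury was favoured and its change is a description. It is 1 of the 18 falls counted there without sample 436. Scnm1, which encodes a splicing factor first known as a modifier of a sodium channel, passed nowhere.

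Partners of the dihydropyridine receptor in excitation-contraction coupling showed falls at the same times. Of 20 listed genes 14 were tested, and 4 fell and 2 rose at 1 day after freeze, 6 fell and 2 rose at 3 days after freeze, and 1 fell and 1 rose at 3 days after contraction. The median log2 changes were -0.70, -0.90 and -0.55. Of all genes 5.46% fell and 9.37% rose at 1 day after freeze, 9% and 9.9% at 3 days, and 2.91% and 5.87% at 3 days after contraction. At 3 days after freeze the largest falls were those of Hrc, a calcium-binding protein of the sarcoplasmic reticulum (-2.32, adjusted p = 0.00984, and -3.29 without sample 436), and Ryr1, the calcium release channel (-1.79, adjusted p = 0.022, and -2.81 without). Sypl2, a triad junction protein, had the largest fall at 1 day after freeze (-1.71, adjusted p = 0.00205). Atp2a2, the slow and cardiac calcium pump, had the largest rise in each of these groups, and reached 4.01 at 7 days after freeze (adjusted p = 1.45e-05) and 2.29 at 7 days after contraction (adjusted p = 0.00371). Its signals in controls were 13.3, 35.5 and 10.2, below the 40th percentile of each array. It entered the test through injured muscle alone, so a higher value after injury was favoured and its change is a description. At 7 days it was the only partner called with all arrays, in either injury. Without sample 436, 9 fell and 2 rose at 3 days after freeze, where 22.2% of all genes fell and 22.7% rose.

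Of 15 sodium pump genes and regulators 11 were tested. At 1 day after freeze 1 fell and 2 rose, at 3 days after freeze 3 fell and 2 rose, as they did in number without sample 436, and at 3 days after contraction 1 fell and 1 rose. Of all genes 5.46% fell and 9.37% rose at 1 day after freeze, and 2.91% and 5.87% at 3 days after contraction. At 3 days after freeze 9% fell and 9.9% rose, or 22.2% and 22.7% without sample 436. Fxyd1, phospholemman, which regulates the pump in muscle, had the largest fall at 3 days after freeze (-1.76, adjusted p = 0.0147, and -2.59 without sample 436). Slc12a2, a sodium, potassium and chloride cotransporter gene, came next (-1.08, adjusted p = 0.04, and -1.68 without). Fxyd5 had the largest rise at 1 day (2.94, adjusted p = 0.00174) and 3 days after freeze (2.17, adjusted p = 0.0171, and 3.26 without sample 436) and at 3 days after contraction (1.93, adjusted p = 0.0374).

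Among genes of the endplate receptor and of proteins that anchor channels, rises outnumbered falls at 3 and 7 days after contraction and at 7 days after freeze. Of 17 listed 13 were tested, and 4 rose and none fell at 3 days after contraction, 2 rose at 7 days after contraction, and 2 rose at 7 days after freeze. At 1 day after freeze 2 fell and none rose, and at 3 days 1 rose and 2 fell, or 4 and 4 without sample 436. Of all genes 5.87% rose and 2.91% fell at 3 days after contraction. At 7 days 0.549% rose after contraction and 3.82% after freeze. At 1 day after freeze 9.37% rose and 5.46% fell, and at 3 days 9.9% and 9%, or 22.7% and 22.2% without sample 436. Chrna1, the alpha subunit of the acetylcholine receptor, rose by 3.58 at 3 days after contraction (adjusted p = 0.00519) and by 3.97 at 7 days after freeze (adjusted p = 0.00679). Chrng, its fetal gamma subunit, rose by 2.72 at 3 days after contraction (adjusted p = 0.0217). Ank1, an ankyrin, and Ache, acetylcholinesterase, fell at 1 day after freeze (-2.14, adjusted p = 0.022, and -1.62, adjusted p = 0.00287). Ank1 had 703.6, 387.7 and 363.9 there, against 1669.5, 976.7 and 5520.5 in controls, with no overlap but a wide spread among controls. For calls of the listed genes, no single array other than sample 436 was left out.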

How the data were processed

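Total RNA of 25 muscles was hybridised to Affymetrix mouse arrays, 1 array a sample. Per the labels' protocols RNA was extracted in TRIzol and purified on RNeasy columns. The values are linear intensity signals, 1 for each of 12488 probe sets, made by the authors; the submitters' processing notes name MAS5 as the tool. Its version and scaling target, and any detection calls or genome build, are not given here by the labels or notes. The mean of each array after trimming 2% at either end was 150.1, so the arrays were taken as already scaled, and changes are relative to the bulk of each array. No genomic position is given for probe sets. Symbols came from the platform's annotation and RefSeq gene identifiers, and no channel symbol needed updating.

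The 66 Affymetrix controls and probe sets that exceeded an array's 40th percentile on fewer than 2 arrays were left out, which left 9506, of which 52 belong to channel genes. Signals were taken to log2 after adding 13. A model with 1 mean for each of 9 groups was fitted in R 4.3.3 by limma 3.58.1, with a trended prior variance in eBayes. P-values are two-sided and Benjamini-Hochberg adjusted over all 9506. Groups were compared with control and freeze with contraction at each time, 12 comparisons, beside 1 F test. On simulated data for freeze at 1 day minus control over 9506 probe sets, 100 were changed by 1 log2 unit and 100 by 2. Of these 34% and 85% were called. The real comparison called 648 genes higher and 378 lower. The adjustment depends on such counts, so the simulated shares may not carry over to it. Named genes were those called with all arrays or without sample 436, and representatives of each class. From the other lists the members with the largest rise and fall were named. Members, lists, tests and alternatives were chosen with earlier results of these data known. Clcn5's second probe set was described after its values were seen. Alternatives were other pseudocounts, quantile normalization, no filter, only the compared groups, adjacent sample numbers as a random effect, and leaving out each array. Where that left 1 array in a group, it was assumed to vary like the others. Array number limits the precision.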

Additional observations from a re-analysis of the deposited data

Results flagged for a closer look

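Cacng1 differed between the 2 injuries by a test of the difference itself. At 1 day freeze minus contraction was -1.25 on the log2 scale (adjusted p = 0.0282, limma). The signals were 504, 419.6 and 581 after freeze, against 1317 and 1100.1 after contraction. At 3 days the difference was -1.33 (adjusted p = 0.0193), with 1178 in sample 436 and 612 and 602 in samples 450 and 468 after freeze, against 1751, 1593 and 2561 after contraction. At both times every freeze array was lower than every contraction array. At 7 days it was -0.46 ± 0.29 and did not pass (adjusted p = 0.563, and 0.267 without sample 436). Whether the difference at 7 days is smaller than at 3 days was not tested.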

How the results depend on the processing

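All 24 channel gene calls kept their direction under every alternative tried, and all were kept without sample 436, with a pseudocount of 2, with quantile normalization and with adjacent sample numbers as a random effect, whose estimated correlation was -0.0937. With a pseudocount of 50, 23 were kept, with no filter on low values 20, and with a fit of the compared groups alone 12. Over 600 fits of 1 call with 1 array left out, 490 kept the call. The number of channel genes called against control moved, with the compared groups fitted alone, to 1 at 6 hours after contraction (0 before), 7 at 1 day (4), 0 at 3 days (10) and 6 at 7 days (2) after freeze. The 0 at 3 days came with adjusted p between 0.352 and 0.353, and it had 19 channel genes lower at an unadjusted p in the full fit. Freeze minus contraction then gave 4 at 1 day (1) and 0 at 3 days (1). A pseudocount of 50 gave 1 at 6 hours after contraction and 1 for freeze minus contraction at 7 days (0 each). Leaving out 1 array in turn gave 0 to 2 calls at 6 hours, 0 to 11 at 1 day, 0 to 19 at 3 days and 0 to 10 at 7 days after freeze, and 0 to 1 at 6 hours, 0 to 11 at 3 days and 0 to 2 at 7 days after contraction. It gave 0 to 3 at 1 day, 0 to 6 at 3 days and 0 to 2 at 7 days for freeze minus contraction, and 5 to 21 for the F test. The share of all genes called was set beside such counts only for the fits with all arrays and without sample 436. Whether these moves are particular to channel genes was not tested, nor were their causes. The highest of these counts at 3 days after freeze was that without sample 436. No 2 groups share a sample number, so samples were paired by adjacent numbers alone, and the labels do not say that these mark a common animal or day. Dim members, such as Kcne1l, Scn8a and Cacna1e, were near the floor on most arrays, and no detection call was available to bound them.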

Other observations

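Markers of other cells that carry these channels gave few calls with all arrays. Of 5 smooth muscle markers 1 fell at 1 day after freeze, 1 rose at 3 days and 1 rose at 7 days, with a summed signal of 1156 to 1396 at 7 days after freeze, against 692.8 to 954.4 in controls. Of 6 endothelial markers 1 fell at 3 days after freeze and 1 at 7 days after contraction, with a summed signal of 578.8 to 725.8 in that contraction group, against 902.5 to 1232 in controls. Of 8 nerve and Schwann cell markers only 3 were tested, and 1 fell at 1, 3 and 7 days after freeze and at 1 and 3 days after contraction. Of all genes 5.46%, 9% and 1.78% fell and 9.37%, 9.9% and 3.82% rose at 1, 3 and 7 days after freeze. At 1, 3 and 7 days after contraction 0.173%, 2.91% and 0.0867% fell.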
